A study of Mus musculus with 40 samples.

Results

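The comparison is between the lungs of mice that received an adenoviral vector without a transgene and the lungs of mice that received saline, in the groups gavaged with vehicle. Its members were chosen from the labels, as all samples with the stimulation Empty vector and the inhibitor vehicle (5 libraries) and all with the stimulation saline and the inhibitor vehicle (5 libraries), which makes 10 of the 40 libraries of the series. The 2 count tables, one per fibrosis model, were joined on the gene identifier. The series sequenced RNA of left lungs from C57BL/6 mice in 8 groups of 5 to study saracatinib, an inhibitor of Src family kinases, in lung fibrosis. Saline was the control of the bleomycin model and was given by the oropharyngeal route. Empty vector was the control of the Ad-TGF-beta model, in which an adenovirus carries mouse Tgfb1 under a CMV promoter, and was given by the nose. All mice of both control groups were gavaged daily with vehicle on days 10 to 27 and their lungs were taken on day 28, as were those of a further 10 mice, 5 saline and 5 empty vector, gavaged with saracatinib at 20 mg/kg. The labels state that both sexes were studied and give no age. They number the mice but do not say whether groups were treated together.

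The 2 control groups differ in more than the vector. Model, delivery route and whatever else set one experiment apart from the other go with the group in all 10 libraries, and no library of either model received the other's control. The labels name 2 institutions and do not say which model was run at which. An effect of the vector, of the route, of the institution and of the experiment therefore cannot be told apart here, and every difference below is between the groups as they stand. The saracatinib libraries share no mouse and no library with the vehicle ones and carry the same difference of experiment.

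Adenovirus particles enter cells through the coxsackie and adenovirus receptor and integrins, and a vector that makes no viral progeny still presents foreign capsid protein and DNA. Capsid protein is known to raise antibody and T cell responses in mice. Activated B cells switch their heavy chain from the Ighm and Ighd constant regions to those of the IgG and IgA classes and can become plasma cells, which secrete antibody. In the lung, B and T cells can gather around airways and vessels into aggregates that carry the chemokine Cxcl13.

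Counts summed to between 9514991 and 13725397 per saline library and between 9289156 and 12525081 per empty vector library. Levels are given as CPM, a gene's counts relative to its library's total after TMM scaling for composition. Xist, which is transcribed from the inactive X of female cells, had at most 11 counts in any of the 10 libraries and at most 12 in any of the 40. Ddx3y, a Y-linked gene, had 76.0 to 100.2 CPM in saline and 82.4 to 110.2 CPM in empty vector lungs. By these 2 genes all 10 lungs were male, although the labels state that both sexes were studied. The lung's own markers were high in all 10: Sftpc, the surfactant protein of alveolar type 2 cells, had 1295 to 2671 and 1238 to 2834 CPM. Nnt, which is deleted in part in one C57BL/6 substrain, had 5.00 to 7.16 and 4.52 to 7.28 CPM and did not pass the test (adjusted p = 0.37). Of the 10 libraries 3 stood apart from their groups. On the first principal component of the 20 control libraries, which held 38.1% of the variance, the empty vector vehicle libraries numbered 1 to 4 lay between 35.09 and 49.46 and library 5 at -9.69, while the saline vehicle libraries lay between -44.52 and -28.38. On the second component (16.3% of the variance) empty vector library 1 lay at 37.08 and the other 4 between -37.06 and -11.3, and saline library 5 at -24.13 and the other 4 between 12.74 and 30.38. Empty vector library 1 and saline library 5 were also the furthest from the rest of their groups in a chi-square comparison of counts (26.1 to 47.6 per degree of freedom against 7.75 to 19.3 among the other empty vector libraries, and 14.9 to 23.7 against 4.29 to 9.13 among the other saline ones). All 3 are kept below, with counts without them where they differ.

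Of 19529 genes tested with edgeR's quasi-likelihood test, 13.9% (2713) were higher and 12.3% (2410) lower in empty vector lungs at a Benjamini-Hochberg adjusted p under 0.05. The median log2 fold change of all genes was 0.02, and of the called genes 758 were over 2-fold higher and 215 over 2-fold lower. All 5 libraries of one group lay above all 5 of the other in the upward direction for 6.06% of genes and in the downward direction for 5.96%. Fold changes below are empty vector over saline on the log2 scale. The ± value is an approximate standard error, the size of the fold change divided by the square root of the test's F statistic. The p-values rest on the spread between mice of the same group, estimated over all 40 libraries. Leaving out library 5 gave 5121 called genes in place of 5123, of which 4453 were among those called with it, leaving out empty vector library 1 gave 5758 (4587 shared) and leaving out saline library 5 gave 4803 (4309 shared). A fit to the 10 compared libraries alone, with no other group sharing the estimate of spread, called 3132 genes, 3038 of them the same.

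The clearest difference was in antibody genes. Of 12 immunoglobulin constant-region genes, 11 could be tested and 10 were higher, with a median log2 fold change of 4.42 (3.50 without empty vector library 1) against 0.02 for all genes. The IgG genes were close to absent in saline lungs. They lie in 1 cluster on chromosome 12 and resemble each other closely, so reads can be shared between them and the split among IgG subclasses is less certain than their sum. The starts of the first exon, which encodes the beginning of the CH1 domain, show how alike they are (GENCODE M21, GRCm38, minus strand, first 100 bases of the exon, capitals where a base differs from Ighg2c):
Ighg2c: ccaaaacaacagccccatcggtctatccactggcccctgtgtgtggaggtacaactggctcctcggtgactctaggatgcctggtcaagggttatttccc
Ighg2b: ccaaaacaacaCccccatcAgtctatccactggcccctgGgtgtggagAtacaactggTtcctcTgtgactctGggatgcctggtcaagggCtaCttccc
Ighg1: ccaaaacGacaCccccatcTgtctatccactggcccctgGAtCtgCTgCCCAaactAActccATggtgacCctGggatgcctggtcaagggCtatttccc
Ighg3: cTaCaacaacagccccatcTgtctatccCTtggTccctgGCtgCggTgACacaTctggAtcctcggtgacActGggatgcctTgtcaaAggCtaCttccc
These stretches lie at chr12:113288833-113288932, chr12:113307834-113307933, chr12:113330424-113330523 and chr12:113361133-113361232 in that order. Over the 291 bases of the whole exon, Ighg2c was 87.6% identical to Ighg2b, 88.0% to Ighg1 and 78.35% to Ighg3.

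Ighg2c had 0.151, 0.166, 0.156, 0.181 and 0.106 CPM in the 5 saline lungs and 819, 133, 1890, 929.7 and 20.0 CPM in the 5 empty vector lungs (log2 fold change 12.18 ± 1.97, adjusted p = 2.59e-05). Ighg1 had 0.151, 0, 0, 0.181 and 0 CPM against 238, 134, 759, 231 and 5.64 CPM (log2 fold change 11.77 ± 1.66, adjusted p = 5.36e-06). The 2 groups did not overlap for either gene, and the fifth empty vector library was far below the other 4 in both. Ighg2b had 0.249 to 0.832 CPM in saline and 18.8 to 1021 CPM in empty vector lungs (log2 fold change 9.96 ± 1.40, adjusted p = 4.95e-06). With so few counts in saline lungs, the sizes of these IgG fold changes depend on the smallest counts. Ighg3 had 0.151, 1.33, 1.87, 0.181 and 0 against 7.02, 5.84, 15.8, 12.3 and 0.198 CPM, overlapped between the groups and missed the threshold (log2 fold change 3.46 ± 1.34, adjusted p = 0.053), and it passed in the saracatinib lungs (log2 fold change 3.72 ± 1.28, adjusted p = 0.024). With vehicle it passed in the fit to the 10 libraries alone, with DESeq2 and without library 5 (adjusted p = 0.019, 0.012 and 0.036).

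Genes that saline lungs already expressed were higher too. Igkc, the constant region of the kappa light chain, had 17.7, 16.9, 13.6, 17.9 and 19.4 CPM in saline and 994, 312, 1928, 1150 and 56.1 CPM in empty vector lungs (log2 fold change 5.70 ± 0.74, adjusted p = 1.31e-06). Jchain, which joins IgA and IgM into polymers, had 3.63, 3.24, 3.04, 3.80 and 5.53 CPM against 406, 105, 799, 347 and 14.8 CPM (log2 fold change 6.46 ± 0.88, adjusted p = 2.82e-06). In both genes every empty vector lung exceeded every saline lung, and library 5 was again lowest. Igha had 4.99 to 22.8 against 36.7 to 1440 CPM (log2 fold change 5.75 ± 0.77, adjusted p = 2.35e-06) and Ighm, the first heavy chain a B cell makes, 40.0 to 66.2 against 79.2 to 564 CPM (log2 fold change 2.62 ± 0.63, adjusted p = 0.0020). Ighd, which marks naive B cells, differed least of the called heavy chains, with 8.89 to 23.4 against 23.4 to 71.6 CPM (log2 fold change 1.24 ± 0.32, adjusted p = 0.0044).

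**Figure D1:**
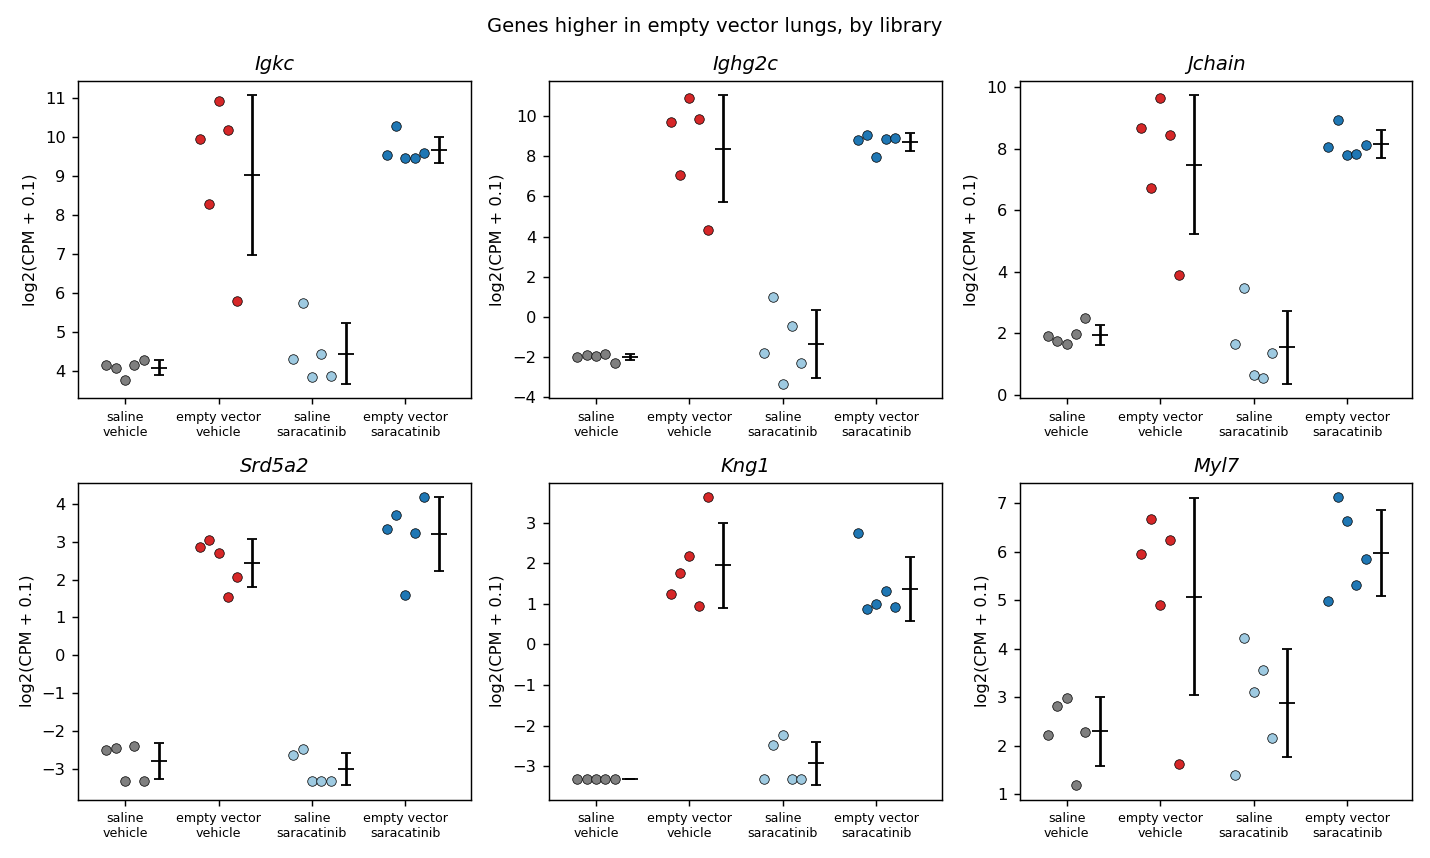
Levels of 6 genes as log2(CPM + 0.1) in the 20 control libraries, 5 per group; each point is a lung and the bar is the mean ± SD of the 5. Igkc, Ighg2c, Jchain, Srd5a2 and Kng1 do not overlap between empty vector and saline lungs in either drug arm, while the fifth empty vector vehicle lung is within the saline range for Myl7.

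The mix of heavy chains differed as well as the amount. In saline lungs the IgG genes together made up a median of 1.46% of heavy-chain constant-region counts (range 0.701 to 4.10%), and in empty vector lungs 60.3% (range 24.3 to 65.2%). The share of Ighm was 67.7% (range 52.7 to 73.1%) in saline and 20.4% (range 8.57 to 43.0%) in empty vector lungs, and that of Ighd 22.1% (range 14.6 to 23.9%) and 1.19% (range 0.809 to 12.7%). These shares rest on 713 to 1175 heavy-chain counts per saline library and on 1859 to 68941 per empty vector library. Immunoglobulin constant and variable genes together took a median of 0.0132% of a saline library and 0.545% of an empty vector library (range 0.0330 to 1.16%). In whole-lung RNA, more cells of a type and more RNA per cell cannot be told apart.

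**Figure D2:**
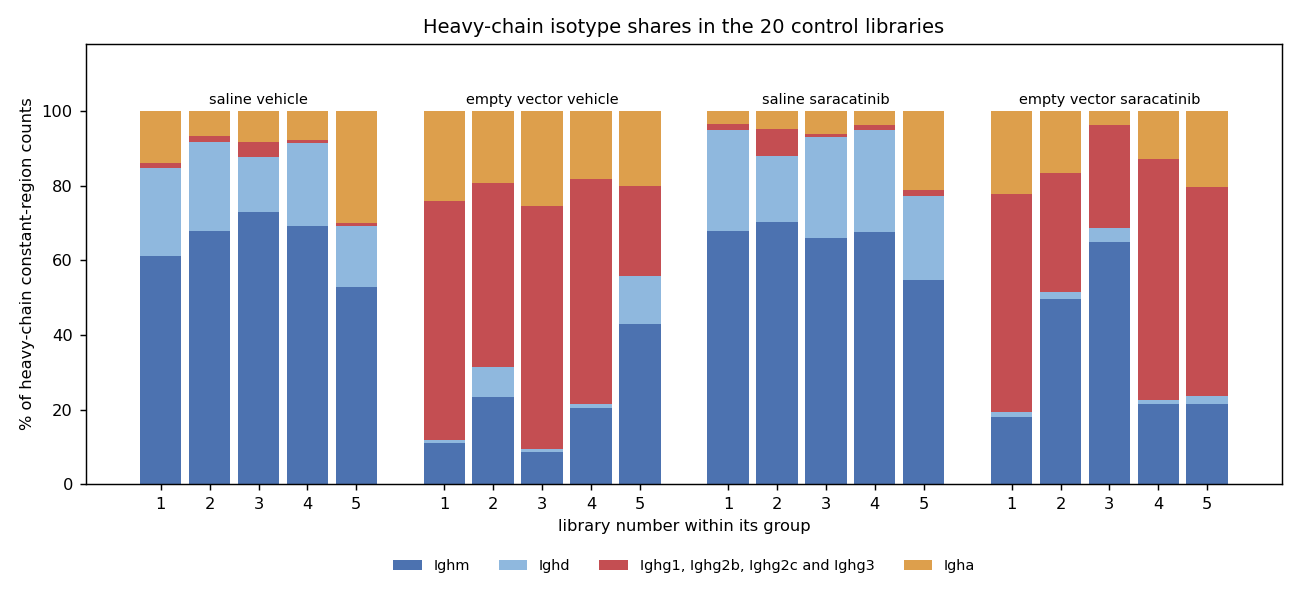
Share of heavy-chain constant-region counts taken by each isotype in the 20 control libraries, in percent, 1 bar per lung. Saline lungs in both drug arms are mostly Ighm and Ighd, and the IgG share is at least 24.3% in every empty vector lung.

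Variable segments pointed the same way. Of 133 variable-segment genes tested, 83 were higher in empty vector lungs. Out of 218 annotated segments, 2 to 5 had at least 10 counts in a saline lung and 17 to 103 in an empty vector lung. The most abundant segment took a median of 11.5% of variable-segment counts (range 7.80 to 14.6%) in empty vector lungs and 5.76% (range 5.40 to 17.2%) in saline lungs. Among genes of any kind called in both drug arms, the kappa segment Igkv5-48 was one of the 5 with the largest difference in vehicle lungs. It had 0.0756, 0.166, 0, 0 and 0 CPM in saline and 29.7, 5.84, 165, 183 and 1.39 CPM in empty vector lungs, though limma did not call it (adjusted p = 0.14). Ighv5-15 was another of the 5, and it rested on 1 lung: it had 0 counts in all 5 saline lungs and 0.403, 0, 0.164, 27.0 and 0.0989 CPM in the empty vector lungs, and without library 4 it was not called (adjusted p = 0.29). Variable segments are near-identical to each other in places, so the count of a single one is uncertain.

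The rest of the series places these levels. The median Igkc level was 100.3 CPM in bleomycin lungs and 978 CPM in Ad-TGF-beta lungs with vehicle, beside an empty vector median of 994 CPM. Ad-TGF-beta and empty vector lungs share the model and its experiment as well as adenovirus, and these cannot be told apart. Ighg2c had a median of 3.07 CPM in bleomycin and 656 CPM in Ad-TGF-beta lungs. The IgG share of heavy-chain counts had medians of 7.77% and 69.7% in the same groups.

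Genes of the plasma cell program were higher in part. Of 14 genes in the list, 9 were higher, with a median of 1.23. Tnfrsf17, the survival receptor BCMA of plasma cells, had 2 counts in all saline lungs together and 66 in the empty vector lungs, a ratio of 35.3 (95% interval 9.38 to 297, counting error alone). Pou2af1, a coactivator of immunoglobulin genes in B cells, had 4.36 to 8.98 against 8.01 to 45.3 CPM (log2 fold change 2.01 ± 0.41, adjusted p = 0.00039), and Derl3, which clears misfolded proteins from the endoplasmic reticulum, 1.38 to 2.19 against 1.95 to 15.4 CPM (log2 fold change 1.82 ± 0.45, adjusted p = 0.0027). Prdm1 and Xbp1, transcription factors of the plasma cell that other lung cells also use, did not pass (log2 fold changes 0.35 and -0.23, adjusted p = 0.12 and 0.078). Prdm1 passed without saline library 1 (adjusted p = 0.026), and Xbp1 with limma and without saline library 5 or empty vector library 1 or 3 (adjusted p = 0.011, 0.044, 0.0067 and 0.019).

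B cell genes were higher almost throughout, with 16 of 17 tested higher and a median of 1.51. Spib, a transcription factor of B cells and plasmacytoid dendritic cells, had 5.60, 8.23, 3.59, 6.88 and 3.09 CPM in saline and 29.8, 27.3, 55.9, 36.1 and 10.6 CPM in empty vector lungs (log2 fold change 2.54 ± 0.35, adjusted p = 4.52e-06). Tnfrsf13c, the BAFF receptor, had 0.858 to 2.57 against 3.17 to 11.2 CPM (log2 fold change 2.33 ± 0.40, adjusted p = 5.26e-05). The groups did not overlap in either of these genes, and library 5, lowest in the antibody genes, was also the lowest empty vector library for Spib. Cd79a, which signals from the B cell receptor, was higher with overlap (3.74 to 10.8 against 8.31 to 30.9 CPM, log2 fold change 1.45 ± 0.36, adjusted p = 0.0027).

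Genes of germinal centres and lymphoid aggregates were higher in 8 of 11 tested (5 in the fit to the 10 libraries alone), with a median of 1.25. Cr2, the complement receptor of B cells and follicular dendritic cells, had 7.34, 10.1, 3.66, 4.44 and 1.70 against 16.3, 30.5, 29.2, 21.7 and 10.2 CPM (log2 fold change 1.96 ± 0.42, adjusted p = 0.00062), with no overlap. Cxcl13, which draws B cells into follicles, had 1.81, 4.16, 6.86, 2.17 and 2.02 against 10.2, 6.05, 21.2, 19.4 and 4.85 CPM and overlapped in the lowest empty vector lungs (log2 fold change 1.85 ± 0.47, adjusted p = 0.0033). Its receptor Cxcr5 had a log2 fold change of 1.58 and Lta, the lymphotoxin that organises lymphoid tissue, one of 2.43 (adjusted p = 0.00022 and 0.00099). Among 12 markers of lymph node and thymus, 3 could be tested. The 2 called were Cr2 and Cxcl13 again, and Ccl21a was listed at 0 in all 10 libraries. Their summed level was 9.90 to 20.2 CPM in saline and 21.1 to 58.4 CPM in empty vector lungs, and whether attached lymph node tissue took part was not tested.

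T cell genes were higher in 17 of 18, with a median of 1.21. Cd4 had 3.55, 3.49, 5.38, 4.26 and 2.77 CPM in saline and 11.2, 8.30, 17.6, 18.7 and 6.04 CPM in empty vector lungs (log2 fold change 1.66 ± 0.27, adjusted p = 3.37e-05). Trac, the constant region of the T cell receptor alpha chain, had 1.596 to 2.88 against 2.57 to 11.7 CPM (log2 fold change 1.90 ± 0.32, adjusted p = 4.34e-05), and Cd28, the costimulatory receptor, 2.34 to 3.74 against 2.77 to 15.9 CPM (log2 fold change 1.69 ± 0.26, adjusted p = 1.47e-05). Cd4 did not overlap between groups and the other 2 overlapped through library 5. Genes of regulatory T cells and checkpoints were higher in 10 of 11, with a median of 1.12. Foxp3, which defines regulatory T cells, had 0.529, 0.665, 1.40, 0.634 and 0.319 against 3.55, 4.00, 4.51, 4.46 and 1.48 CPM (log2 fold change 2.30 ± 0.36, adjusted p = 2.13e-05), and the inhibitory receptor Tigit 0.166 to 0.780 against 0.891 to 4.35 CPM (log2 fold change 2.72 ± 0.54, adjusted p = 0.00029).

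Of 15 genes of CD8 T cells and cytotoxicity, 3 were higher, and of 12 NK cell genes 1 was, beside the 13.9% of all genes. Cd8a had 2.72, 3.16, 2.50, 2.81 and 2.13 CPM in saline and 6.13, 5.12, 9.93, 9.41 and 2.08 CPM in empty vector lungs (log2 fold change 1.29 ± 0.31, adjusted p = 0.0019), with library 5 below every saline lung. Its median in Ad-TGF-beta lungs was 18.2 CPM (range 16.9 to 19.2 CPM), above every empty vector lung. Cst7 and Nkg7, the other 2 called, were not called in most fits that left out a library (Nkg7 adjusted p = 0.050 to 0.11 in those, Cst7 0.057 to 0.11). Without saline library 3, 4 or 5 or empty vector library 1 or 3, 1 of the 15 was called, and without empty vector library 5 it was 5. Klrk1, the activating receptor NKG2D, was the NK gene called (log2 fold change 0.78 ± 0.20, adjusted p = 0.0035). Of 9 genes of resident memory T cells 6 were higher (4 to 7 with a library left out) and 1 lower. The higher ones included Cxcr6 (1.87 to 2.80 against 3.36 to 9.02 CPM, log2 fold change 1.41 ± 0.29, adjusted p = 0.00045) and Cxcr3, the receptor of Cxcl9 and Cxcl10 (log2 fold change 1.75, adjusted p = 0.00078). The lower one was the collagen-binding integrin Itga1 (455 to 675 against 283 to 593 CPM, log2 fold change -0.60 ± 0.17, adjusted p = 0.0070), the most abundant of the list, so the summed level of the 9 had a median of 679 CPM in saline and 427 CPM in empty vector lungs.

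Of 29 type I interferon-stimulated genes 4 were higher and 2 lower, with a median of 0.21, beside 13.9% of all genes higher and 12.3% lower. Ifit1 had 18.7, 15.3, 20.8, 14.4 and 7.66 CPM in saline and 25.5, 10.7, 22.8, 20.5 and 9.30 CPM in empty vector lungs and did not pass (log2 fold change 0.21 ± 0.28, adjusted p = 0.63). Irf7, the factor that amplifies the type I response, did not pass either (log2 fold change 0.37 ± 0.23, adjusted p = 0.23). Among those called, Mx1 had 4.26 to 9.43 against 8.01 to 16.9 CPM (log2 fold change 0.86 ± 0.27, adjusted p = 0.015), but not without empty vector library 3 (adjusted p = 0.10), and without that library, as in the fit to the 10 libraries alone, 1 of the 29 was higher. Without saline library 1 or 5 or empty vector library 4 it was 2. Ifna1, Ifna2, Ifna4, Ifnb1, Ifne and Ifnl3 were listed at 0 in all 10 libraries. The lungs were taken on day 28, so these values say nothing of the first days.

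Of 23 genes that respond to interferon gamma, 8 were higher, beside 13.9% of all genes, with a median of 0.36. Without empty vector library 3 it was 5, and in the fit to the 10 libraries alone 2. Cxcl9, a chemokine for T cells, had 0.756, 0.0832, 7.49, 0.453 and 0.106 CPM in saline and 12.3, 5.23, 22.6, 10.1 and 1.58 CPM in empty vector lungs (log2 fold change 2.48 ± 0.64, adjusted p = 0.0038). The third saline lung, at 7.49 CPM, lay among the empty vector lungs, and the fit to the 10 libraries alone did not call the gene (adjusted p = 0.078). In the saracatinib lungs Cxcl9 did not overlap, with 0.106 to 0.372 CPM in saline and 2.21 to 9.73 CPM in empty vector (log2 fold change 4.25 ± 0.96, adjusted p = 0.00096). Cxcl10 was called in both arms (log2 fold change 2.35 ± 0.51, adjusted p = 0.00076 in vehicle and log2 fold change 2.36 ± 0.62, adjusted p = 0.0035 in saracatinib lungs). Ifng itself had 0.151 to 0.312 and 0.0820 to 0.161 CPM, levels of a few counts a library, and no difference was detectable at this depth (log2 fold change -0.85 ± 0.80, adjusted p = 0.47). In Ad-TGF-beta lungs the median of Cxcl9 was 78.1 CPM, above all empty vector lungs.

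Class II genes, which present antigen to CD4 T cells, were higher in 10 of 11, with a median of 0.65. The classical chains were abundant and differed by a modest amount: H2-Aa had 227, 196, 251, 265 and 215 CPM in saline and 393, 307, 474, 423 and 213 CPM in empty vector lungs (log2 fold change 0.65 ± 0.17, adjusted p = 0.0037), and H2-Eb1 132 to 193 against 166 to 368 CPM (log2 fold change 0.74 ± 0.17, adjusted p = 0.0015). The larger differences were in H2-Oa and H2-Ob, the chains of H2-O, which curbs peptide loading and is made in B cells. H2-Oa had 1.81, 1.91, 1.48, 1.54 and 2.02 against 2.50, 5.74, 7.38, 5.53 and 4.06 CPM (log2 fold change 1.52 ± 0.29, adjusted p = 0.00017) and H2-Ob 18.8, 20.7, 12.5, 16.8 and 13.9 against 26.2, 61.3, 47.5, 46.6 and 31.3 CPM (log2 fold change 1.36 ± 0.23, adjusted p = 3.71e-05), with no overlap in either. Ciita, the master activator of class II transcription, was the gene that did not pass (log2 fold change 0.12 ± 0.19, adjusted p = 0.68). The count of 10 fell to 6 without saline library 2 and in the fit to the 10 libraries alone, and to 5 without empty vector library 3. Class II promoters are known for a Y box, an inverted CCAAT sequence upstream of the start. The letters CTGATTGG on either strand occurred in the 250 bases before the start of 3 of the 8 list genes with a RefSeq promoter entry, and in 3.83% of 32851 promoters. The 120 bases before the start of those 3, with these letters in capitals, are shown because they are the class II genes with both a called difference and the motif (RefSeq, GRCm38.p6, gene strand):
H2-Aa: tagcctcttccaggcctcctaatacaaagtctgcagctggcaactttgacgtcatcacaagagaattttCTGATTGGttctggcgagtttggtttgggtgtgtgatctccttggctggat
H2-Eb1: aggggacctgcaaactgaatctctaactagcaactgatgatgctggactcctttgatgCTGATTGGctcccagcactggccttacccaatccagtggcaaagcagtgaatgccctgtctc
H2-Oa: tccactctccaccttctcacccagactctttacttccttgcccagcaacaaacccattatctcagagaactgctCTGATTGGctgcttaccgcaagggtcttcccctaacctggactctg
The windows are chr17:34287824-34287943 on the minus strand for H2-Aa and chr17:34305747-34305866 and chr17:34092259-34092378 on the plus strand for H2-Eb1 and H2-Oa. The motif begins 51, 62 and 46 bases before the start. A match is a run of letters and shows no binding in these lungs.

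Of 15 dendritic cell genes 9 were higher, beside 13.9% of all genes, with a median of 0.65. Xcr1 and Clec9a, receptors of the dendritic cells that cross-present antigen, had 2.12 to 5.38 against 6.13 to 14.0 CPM (log2 fold change 1.40 ± 0.27, adjusted p = 0.00025) and 7.41 to 13.2 against 16.1 to 28.9 CPM (log2 fold change 1.00 ± 0.22, adjusted p = 0.0010). Of 18 genes of monocyte-derived and scar macrophages 6 were higher and 1 lower, beside 13.9% and 12.3% of all genes. The lower one was Spp1, whose values are given below with the activated fibroblast genes. Ly6c2, of inflammatory monocytes, had 3.48, 3.33, 3.82, 6.07 and 3.30 CPM in saline and 29.2, 7.58, 50.6, 21.1 and 3.46 CPM in empty vector lungs (log2 fold change 2.50 ± 0.45, adjusted p = 0.00010), and Ccr2, the monocyte chemokine receptor, 27.1 to 34.0 against 38.4 to 65.8 CPM without overlap (log2 fold change 0.81 ± 0.16, adjusted p = 0.00033). Leaving out saline library 1 or empty vector library 3 or 4 left 3 of the 18 higher. Of 15 alveolar macrophage genes 1 was higher and 1 lower (5 lower without empty vector library 1). Of 10 neutrophil genes 0 were called by edgeR, 0 at an unadjusted p under 0.05, and 0 by DESeq2 or limma.

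Of 23 chemokine genes, 9 were higher and 3 lower, beside 13.9% and 12.3% of all genes. Ccl20, which draws cells with the receptor Ccr6, had 0.302, 0.333, 1.40, 0.362 and 0.106 against 9.03, 3.18, 18.5, 9.80 and 0.297 CPM (log2 fold change 3.95 ± 0.65, adjusted p = 3.34e-05), and library 5 lay in the saline range. Ccl8 had 0.529, 0.582, 4.44, 0.906 and 1.49 against 6.45, 4.20, 16.7, 13.9 and 3.96 CPM, with the third saline lung overlapping (log2 fold change 2.49 ± 0.43, adjusted p = 5.41e-05). The lower ones were Cxcl5, a neutrophil chemokine (log2 fold change -1.63 ± 0.44, adjusted p = 0.0058), Cxcl12, which holds lymphocytes and progenitors in tissue (log2 fold change -0.49 ± 0.15, adjusted p = 0.012), and Cxcl14 (log2 fold change -0.66 ± 0.19, adjusted p = 0.0081). Of 15 genes of inflammatory cytokines and the acute phase, edgeR called 0, with 3 at an unadjusted p under 0.05, DESeq2 called 1 and limma 3.

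Proliferation genes were higher in 23 of 32, beside 13.9% of all genes, with a median of 0.80, and the count depended on few lungs. Top2a, which untangles replicated DNA, had 15.4, 18.7, 25.7, 19.4 and 18.5 CPM in saline and 37.4, 23.6, 72.9, 46.9 and 27.4 CPM in empty vector lungs (log2 fold change 1.10 ± 0.28, adjusted p = 0.0036), and Mki67 30.0 to 47.4 against 37.8 to 138 CPM (log2 fold change 0.98 ± 0.30, adjusted p = 0.014). Mki67 was not called without empty vector library 3 (adjusted p = 0.14) or in the fit to the 10 libraries alone (0.052). The third empty vector lung was highest in both. Without it 6 of the 32 were higher, without library 4 it was 11, without saline library 1 or 2 it was 15, and in the fit to the 10 libraries alone 9. Of 16 replication-dependent histone genes 8 were higher, 4 without that lung. With saracatinib 15 of the 32 proliferation genes and 5 of the 16 histone genes were higher, beside 16.8% of all genes.

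Ribosomal protein genes differed by small amounts with little spread. Of 24 ribosomal protein genes 20 were higher, beside 13.9% of all genes, with a median of 0.37. The groups did not overlap in 17 of the 24, against 6.06% of all genes. The difference was weaker with saracatinib, where 9 of the 24 were higher, beside 16.8% of all genes, with a median of 0.16. There 5 of the 24 did not overlap, against 8.73% of all genes. Rpl5 had 95.7 to 114 against 141 to 177 CPM (log2 fold change 0.61 ± 0.07, adjusted p = 3.94e-07). Nuclear genes of oxidative phosphorylation were higher in 12 of 23, beside 13.9% of all genes (6 in the fit to the 10 libraries alone and without empty vector library 1, 7 without saline library 2 or empty vector library 2). Of 11 protein-coding genes of the mitochondrial genome, edgeR called 0, with 0 at an unadjusted p under 0.05, and DESeq2 and limma called 0. The 2 mitochondrial ribosomal RNAs, in libraries depleted of ribosomal RNA, were called higher with p-values near the threshold: mt-Rnr1 (log2 fold change 1.75 ± 0.66, adjusted p = 0.048) was not called in any fit without 1 of the 10 libraries other than empty vector library 1, and mt-Rnr2 (1.58 ± 0.55, adjusted p = 0.032) was not called without saline library 1, 2 or 5 or empty vector library 2, 3 or 4. Red cell and platelet genes were higher in 4 of 11 (7 without saline library 2), beside 13.9% of all genes. The largest difference among them was in the platelet chemokine Ppbp (8.09 to 17.6 against 19.0 to 41.5 CPM, log2 fold change 1.50 ± 0.33, adjusted p = 0.00095). In the saracatinib lungs 2 of the 11 were higher, beside 16.8% of all genes.

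Genes of alveolar fibroblasts, which hold the alveolar wall and its elastin, were lower in 15 of 16, with a median of -0.91 against 12.3% of all genes called lower. Mfap4, a protein of elastic microfibrils, had 391, 424, 488, 360.3 and 483 CPM in saline and 241, 162, 129, 142 and 103 CPM in empty vector lungs (log2 fold change -1.46 ± 0.19, adjusted p = 1.20e-06). Tcf21, a transcription factor of lung mesenchyme, had 66.1, 75.2, 63.9, 53.4 and 79.7 against 46.9, 23.2, 16.8, 16.4 and 23.3 CPM (log2 fold change -1.41 ± 0.22, adjusted p = 2.21e-05), and Pdgfra, the PDGF receptor of these cells, 644 to 733 against 264 to 519.6 CPM (log2 fold change -0.99 ± 0.14, adjusted p = 5.81e-06). The groups did not overlap in any of the 3. Slc7a10, an amino acid transporter, had 75.3 to 121 against 15.4 to 37.0 CPM (log2 fold change -1.79 ± 0.28, adjusted p = 1.61e-05). Ces1d was the 1 gene of the list that did not pass. In the saracatinib lungs the same list had 5 lower genes of 16 and a median of -0.22.

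Matrix genes were lower in part. Of 24 genes of collagens and their processing, 14 were lower, with a median of -0.53. Eln, elastin, had 650.0, 698, 840.0, 983 and 786 CPM in saline and 302, 319, 389, 449 and 509.7 CPM in empty vector lungs (log2 fold change -1.01 ± 0.20, adjusted p = 0.00031), and Col8a1 25.5 to 28.2 against 10.2 to 18.0 CPM (log2 fold change -1.09 ± 0.16, adjusted p = 8.21e-06). Fn1, fibronectin, was lower in 4 of the empty vector lungs, and the first, at 849 CPM, lay in the saline range of 809 to 1050 CPM (log2 fold change -1.07 ± 0.25, adjusted p = 0.0015). The fibrillar collagen genes Col1a1 (703 to 919.8 against 516 to 771 CPM, log2 fold change -0.22 ± 0.18, adjusted p = 0.41) and Col3a1 (log2 fold change -0.31 ± 0.13, adjusted p = 0.085) did not pass, though Col3a1 did in the fit to the 10 libraries alone (adjusted p = 0.044).  Col1a1 had a median of 2062 CPM in bleomycin and 832 CPM in Ad-TGF-beta lungs.

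Of 18 genes of activated fibroblasts, 7 were lower and 1 higher. Postn, periostin, had 293 to 465 against 106 to 293 CPM (log2 fold change -1.18 ± 0.21, adjusted p = 6.79e-05), and Spp1, osteopontin, 109.6, 60.0, 117, 107 and 75.1 against 74.0, 30.6, 15.0, 16.4 and 9.40 CPM (log2 fold change -1.68 ± 0.40, adjusted p = 0.0018). Cilp, a matrix protein, was the one higher, with 4.08 to 10.3 against 5.94 to 24.3 CPM (log2 fold change 1.45 ± 0.35, adjusted p = 0.0025). In the TGF-beta pathway 6 of 25 genes were lower, beside 12.3% of all genes. Among them were Ltbp2, a latent TGF-beta binding protein family member (209 to 309 against 116 to 161 CPM, log2 fold change -1.04 ± 0.17, adjusted p = 2.53e-05), and Ccn2, a target of the pathway (144 to 227 against 64.3 to 128 CPM, log2 fold change -0.88 ± 0.20, adjusted p = 0.0012). Tgfb1 had 66.9, 59.0, 54.4, 72.5 and 50.4 against 79.1, 68.2, 67.3, 59.0 and 59.2 CPM and did not pass (log2 fold change 0.13 ± 0.15, adjusted p = 0.56), and in Ad-TGF-beta lungs its median was 219.9 CPM.

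Of 17 genes of smooth muscle and pericytes, 6 were lower with vehicle, with a median of -0.25. The pericyte genes Higd1b, Cspg4, Pdgfrb, Cox4i2 and Notch3 were 5 of them, and the contractile genes Acta2, Myh11, Tagln, Cnn1 and Actg2 did not pass. Higd1b, a pericyte marker, had 28.9, 26.0, 33.1, 26.4 and 32.2 CPM in saline and 15.9, 12.1, 10.0, 10.9 and 10.3 CPM in empty vector lungs (log2 fold change -1.31 ± 0.13, adjusted p = 2.05e-08), and Cspg4, the NG2 proteoglycan, 77.5 to 113 against 42.3 to 51.2 CPM (log2 fold change -1.02 ± 0.14, adjusted p = 5.36e-06). Myh11, smooth muscle myosin, had 316 to 648 against 179 to 534 CPM (log2 fold change -0.18 ± 0.31, adjusted p = 0.71). With saracatinib 14 of the 17 were lower and 1 higher, and Myh11 was lower (log2 fold change -1.10 ± 0.32, adjusted p = 0.0077). The test of the difference between the arms called 0 of the 17, and 6 of all genes. Of 19 capillary genes 7 were lower, beside 12.3% of all genes. The count was 3 without saline library 1 and in the fit to the 10 libraries alone, and 11 without empty vector library 1. Tbx2, a transcription factor of lung capillaries and fibroblasts, had 344 to 426 against 178 to 267 CPM (log2 fold change -0.76 ± 0.11, adjusted p = 5.49e-06).

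**Figure D3:**
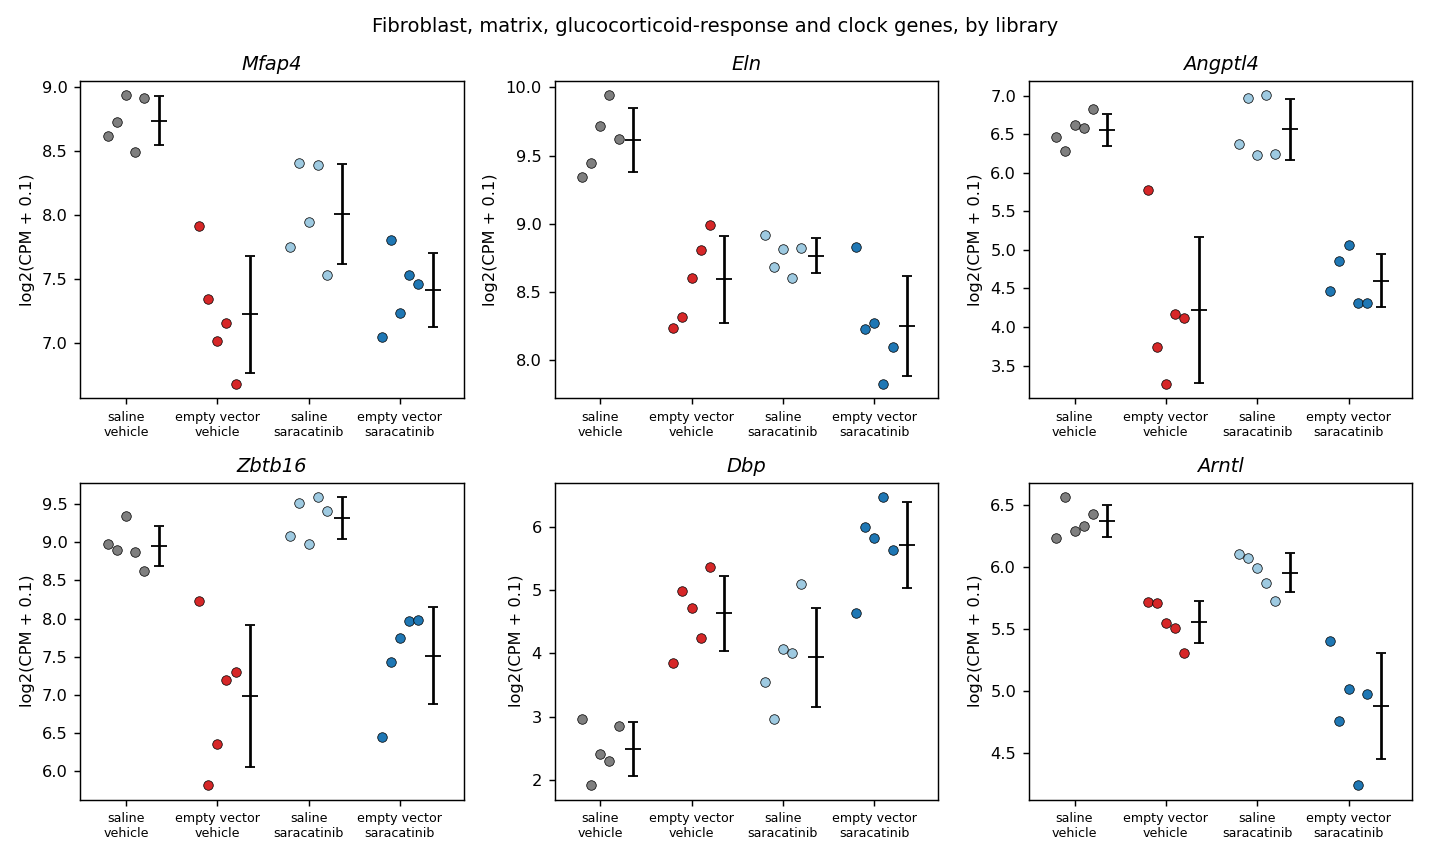
Levels of 6 genes as log2(CPM + 0.1) in the 20 control libraries, 5 per group; points are lungs and bars the mean ± SD. Mfap4, Eln, Angptl4, Zbtb16 and Arntl are lower and Dbp higher in every empty vector vehicle lung than in any saline vehicle lung.

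The lists of mature lung epithelium held few calls. Of 15 genes of alveolar type 2 cells 0 were called, of 14 of type 1 cells 1 (3 without empty vector library 1), of 19 of ciliated cells 0 and of 16 of club and secretory cells 2. Scgb1a1, the club cell secretory protein, had 2788, 2863, 3008, 2893 and 4337 CPM in saline and 2137, 3255, 3272, 4092 and 4714 CPM in empty vector lungs (log2 fold change 0.14 ± 0.19, adjusted p = 0.63). Foxj1, which drives ciliogenesis, had 93.2 to 210.1 against 104 to 207 CPM (log2 fold change 0.19 ± 0.28, adjusted p = 0.66). Sftpc did not pass (log2 fold change -0.31 ± 0.20, adjusted p = 0.26), and it did without empty vector library 1 (log2 fold change -0.58, adjusted p = 0.019), where 5 of the 15 type 2 genes were called lower. At an unadjusted p under 0.05 edgeR gave 3 of the 15 type 2 and 3 of the 19 ciliated genes. DESeq2 called 1 in each list, and limma called 4 type 2 and 9 ciliated genes. Of the ciliated genes, 5 were higher without saline library 5 and 3 without empty vector library 1. Of 16 genes that injured epithelium in transition between the alveolar types is known to express, 4 were lower and 1 higher, beside 12.3% and 13.9% of all genes. Fn1, Ccn2, the cell-cycle inhibitor Cdkn1a (82.4 to 150.2 against 34.7 to 123 CPM, log2 fold change -0.87 ± 0.24, adjusted p = 0.0076) and the keratin Krt7 (log2 fold change -0.32 ± 0.12, adjusted p = 0.045) were the lower ones, and the tight-junction gene Cldn4 (1.74 to 5.00 against 1.94 to 11.0 CPM, log2 fold change 1.14 ± 0.35, adjusted p = 0.014) the higher one. The fit to the 10 libraries alone called 2 lower and 0 higher, Cdkn1a, Krt7 and Cldn4 not among them (adjusted p = 0.058, 0.16 and 0.078), and Cldn4 was also not called without saline library 1 or empty vector library 5 (0.051 and 0.060). Krt7 was not called without saline library 1, 2 or 4 or empty vector library 2, 3, 4 or 5 (adjusted p = 0.055 to 0.19). Fn1 and Ccn2 are also genes of fibroblasts. With saracatinib 8 of the 16 were lower and 2 higher, beside 15.8% and 16.8% of all genes.

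Heart muscle genes were higher by amounts that varied from lung to lung. In mice, cardiomyocytes extend along the pulmonary veins into the lung, so a left lung carries them in a number that depends on the vessels taken. Of 15 such genes 14 were higher, with a median of 2.10. Myl7, the atrial myosin light chain, had 4.54, 6.98, 7.80, 2.17 and 4.79 CPM in saline and 61.9, 102, 30.0, 75.4 and 2.97 CPM in empty vector lungs (log2 fold change 3.36 ± 0.60, adjusted p = 8.33e-05), and Ttn, titin, 195 to 421 against 182 to 2235 CPM (log2 fold change 2.10 ± 0.51, adjusted p = 0.0024). Library 5 was within the saline range for Myl7 and just below it for Ttn, and the groups overlapped in all 14. The summed level of the 15 was 492 to 1035 CPM in saline and 484 to 4332 CPM in empty vector lungs. Without empty vector library 2 there were 9 higher genes. Tbx5, also a gene of lung mesenchyme, was the 1 lower (86.1 to 116 against 42.7 to 76.2 CPM, log2 fold change -0.83 ± 0.14, adjusted p = 5.35e-05). Genes with a large difference that are known from muscle, Scn4b, a sodium channel subunit (0.181 to 0.468 against 0.693 to 5.53 CPM), Fndc5, the precursor of irisin (0.815 to 1.596 against 1.68 to 15.6 CPM), and Hfe2, hemojuvelin (0.0756 to 0.272 against 0.495 to 5.84 CPM), were likewise lowest of their group in library 5. Of the 12 skeletal muscle genes 7 were tested and 2 higher, beside 13.9% of all genes, and Myh4 was listed at 0 in all 10. With saracatinib 5 of the 7 were higher, beside 16.8% of all genes, with a median of 2.82. The summed level of the list in empty vector lungs of that arm had a median of 14.8 CPM and a maximum of 374 CPM. The part of the amount of vein in these muscle values was not tested.

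Srd5a2 and Kng1 were close to absent in every saline lung and present in every empty vector lung, library 5 included. Srd5a2, a steroid 5-alpha reductase that converts testosterone to dihydrotestosterone, had 0.0756, 0.0832, 0, 0.0906 and 0 CPM in saline and 7.10, 8.20, 6.40, 2.81 and 4.06 CPM in empty vector lungs (adjusted p = 2.46e-10). That is 3 counts in all against 316, a ratio of 113 (95% interval 38.2 to 549, counting error alone). Kng1, a kininogen that gives rise to bradykinin, had 0 counts in all saline lungs and 2.26, 3.28, 4.43, 1.84 and 12.3 CPM in the empty vector lungs (adjusted p = 8.51e-07). Taking 3 counts over the group as the limit that a count of 0 allows, it was at least 91.5-fold higher. Kng2, its neighbour and close relative on chromosome 16, had 0.151, 0.416, 0.156, 0.634 and 0 against 3.23, 7.07, 5.17, 1.94 and 6.83 CPM (log2 fold change 4.09 ± 0.62, adjusted p = 1.32e-05), and reads can be shared between the 2 kininogen genes. Library 5 was highest of all in Kng1, at 12.3 CPM, in contrast to the antibody and muscle genes.

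In the injured lungs the 3 genes differed. Srd5a2 had a median of 19.1 CPM in Ad-TGF-beta lungs and 0.0845 CPM in bleomycin lungs with vehicle, and Kng1 1.17 and 0.0903 CPM. Kng2 had a median of 19.0 CPM in bleomycin lungs, above every empty vector lung. Srd5a2 lies at chr17:74016955-74047916 and Kng1 at chr16:23057865-23082078 (GRCm38). Other genes among the 12 with the largest difference, counting protein-coding genes at 1 CPM or more whose groups did not overlap, were Pla2g2d, a phospholipase of resting dendritic cells (1.21, 0.748, 2.11, 1.18 and 2.02 against 4.28, 7.07, 15.3, 15.4 and 4.06 CPM, log2 fold change 2.67 ± 0.41, adjusted p = 1.32e-05), Plekhs1 (0.319 to 0.546 against 0.693 to 10.3 CPM, log2 fold change 3.48 ± 0.46, adjusted p = 1.76e-06) and AU018091 (0.0756 to 0.665 against 0.873 to 2.46 CPM, log2 fold change 2.79 ± 0.46, adjusted p = 2.95e-05).

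Among protein-coding genes at 1 CPM or more whose groups did not overlap, the largest differences downward were in Slc26a10 and Ntrk2. Slc26a10, of an anion transporter family, had 6.58, 5.65, 9.28, 6.34 and 5.64 CPM in saline and 1.21, 1.95, 1.31, 0.970 and 1.19 CPM in empty vector lungs (log2 fold change -2.34 ± 0.30, adjusted p = 1.13e-06). Ntrk2, the receptor TrkB of the growth factor BDNF, had 52.6, 66.9, 76.5, 47.6 and 32.7 against 14.1, 12.7, 11.8, 10.4 and 10.1 CPM (log2 fold change -2.22 ± 0.27, adjusted p = 8.56e-07). Neither overlapped, and both had higher medians in bleomycin lungs (10.2 and 138 CPM) than in any empty vector lung. Gap43, a growth-cone protein (12.8 to 20.4 against 3.49 to 9.20 CPM, log2 fold change -1.67 ± 0.22, adjusted p = 2.07e-06), Tubb4a, a tubulin (26.6 to 33.0 against 5.84 to 18.8 CPM, log2 fold change -1.57 ± 0.21, adjusted p = 1.76e-06), and Slc13a4, a sulfate transporter (4.47 to 5.37 against 0.492 to 3.71 CPM, log2 fold change -1.68 ± 0.38, adjusted p = 0.0012), were also among the 12 largest.

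Genes that glucocorticoids induce were lower in 8 of 17, beside 12.3% of all genes, with a median of -0.62. Zbtb16, a transcription factor, had 505, 479, 651, 470.3 and 394 CPM in saline and 301, 56.2, 82.0, 146 and 157 CPM in empty vector lungs (log2 fold change -1.75 ± 0.32, adjusted p = 0.00012). Angptl4, an inhibitor of lipoprotein lipase, had 88.1, 77.4, 98.1, 95.7 and 113 against 54.8, 13.2, 9.52, 17.9 and 17.3 CPM (log2 fold change -2.05 ± 0.30, adjusted p = 7.01e-06), and Hif3a 20.0, 21.5, 29.1, 20.9 and 23.2 against 10.2, 5.94, 3.45, 4.95 and 6.43 CPM (log2 fold change -1.88 ± 0.29, adjusted p = 1.42e-05). The groups did not overlap in these 3 genes, and the first empty vector lung was the nearest to saline in each. Tsc22d3, known as GILZ, had 286 to 441 against 96.8 to 293 CPM (log2 fold change -1.11 ± 0.24, adjusted p = 0.00084) and Fkbp5, which feeds back on the receptor, 45.1, 56.9, 125, 58.4 and 54.3 against 65.9, 17.0, 22.2, 27.8 and 33.3 CPM (log2 fold change -1.03 ± 0.32, adjusted p = 0.017), both with that first lung among the saline ones. Fkbp5 was not called without saline library 3 (adjusted p = 0.12), without empty vector library 2 or 3 (0.051 and 0.052) or in the fit to the 10 libraries alone (0.073). Nr3c1, the receptor itself, did not pass (log2 fold change -0.04 ± 0.11, adjusted p = 0.80). The saracatinib lungs had 10 lower genes of 17, beside 15.8% of all genes.

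Some clock genes were higher and others lower. Dbp, a transcription factor driven by the clock, had 7.71, 3.66, 5.22, 4.80 and 7.13 CPM in saline and 14.3, 31.6, 26.3, 18.9 and 41.1 CPM in empty vector lungs (log2 fold change 2.21 ± 0.44, adjusted p = 0.00031), and Nr1d2, the repressor REV-ERB beta, 50.1 to 68.2 against 83.6 to 106 CPM (log2 fold change 0.73 ± 0.17, adjusted p = 0.0015). Arntl, the activator BMAL1, had 75.2, 94.7, 78.5, 80.8 and 86.2 against 52.5, 52.5, 46.9, 45.6 and 39.6 CPM (log2 fold change -0.81 ± 0.16, adjusted p = 0.00036), and its partner Npas2 33.5 to 50.6 against 15.7 to 29.6 CPM (log2 fold change -0.75 ± 0.25, adjusted p = 0.022). The 2 groups did not overlap in any of the 4, though Npas2 was not called without saline library 2 or empty vector library 1 (adjusted p = 0.054 and 0.056). Of 19 core clock genes 3 were higher and 5 lower (3 lower without saline library 2), beside 13.9% and 12.3% of all genes, and Per1 did not pass (log2 fold change -0.44 ± 0.23, adjusted p = 0.16). The labels give no hour of harvest, and the part of the time of day in these values and in the glucocorticoid genes was not tested.

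Genes for virus entry and for the drug's targets were called in both directions. Cxadr, the coxsackie and adenovirus receptor, had 115, 104, 96.1, 98.7 and 75.5 CPM in saline and 145, 123, 121, 102 and 128 CPM in empty vector lungs (log2 fold change 0.34 ± 0.10, adjusted p = 0.011), a call that the fit to the 10 libraries alone and the one without empty vector library 1 did not make (adjusted p = 0.060 and 0.059). Of 11 genes of receptors and uptake 4 were higher and 3 lower, beside 13.9% and 12.3% of all genes. Without empty vector library 1, 2 were higher. Without saline library 1 or empty vector library 3, and with an offset for GC content, 1 was lower. Src had 83.5 to 97.4 against 76.2 to 95.8 CPM and did not pass (log2 fold change -0.14 ± 0.06, adjusted p = 0.11), though it did without saline library 2 or empty vector library 5 (adjusted p = 0.038 and 0.011). Of 13 genes of the Src family and its partners 3 were higher and 3 lower, beside 13.9% and 12.3% of all genes. The lower ones were Fyn, Ptk2 and Bcar1, of which Bcar1 was not called in 8 of the alternatives. The higher ones were Blk (log2 fold change 1.51 ± 0.26, adjusted p = 7.20e-05), a kinase of B cells, Lck (log2 fold change 0.94 ± 0.21, adjusted p = 0.0011), a kinase of T cells, and Frk (log2 fold change 0.49 ± 0.12, adjusted p = 0.0032); Ptk2 is focal adhesion kinase (log2 fold change -0.35 ± 0.07, adjusted p = 0.00051). Of 17 genes of DNA sensing and the inflammasome 5 were higher and 1 lower, beside 13.9% and 12.3% of all genes. Aim2, a sensor of cytosolic DNA, had 5.16 to 7.82 against 8.81 to 17.1 CPM (log2 fold change 0.95 ± 0.18, adjusted p = 0.00018) and Tlr9, the receptor of unmethylated DNA, 5.53 to 7.23 against 8.01 to 17.6 CPM (log2 fold change 0.91 ± 0.22, adjusted p = 0.0025).

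**Figure D4:**
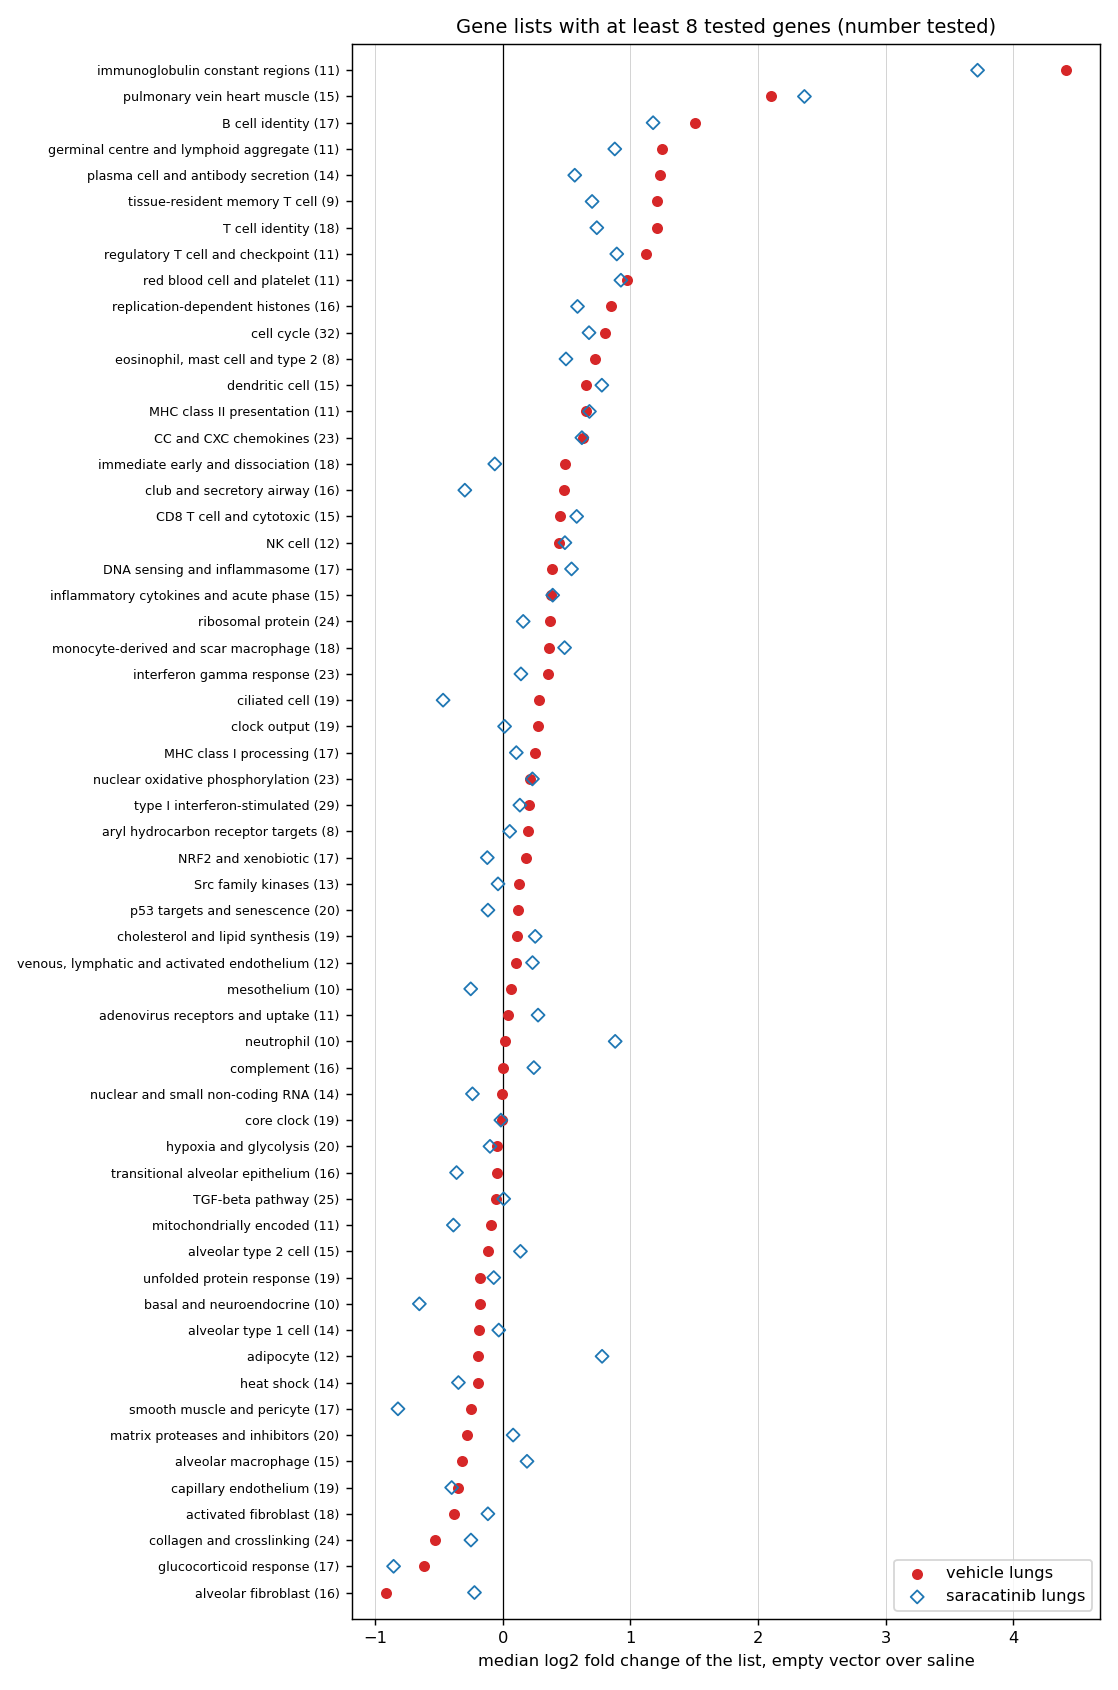
Median log2 fold change, empty vector over saline, of each gene list with at least 8 tested genes; filled circles are vehicle lungs, open diamonds saracatinib lungs, and the number of genes tested is in brackets. Immunoglobulin constant regions (4.42 and 3.72) and heart muscle (2.10 and 2.36) lie furthest to the right. Alveolar fibroblast genes (-0.91) lie furthest to the left with vehicle and glucocorticoid genes (-0.86) with saracatinib.

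The same comparison in the 10 lungs of saracatinib-treated mice called 16.8% of genes (3280) higher and 15.8% (3085) lower. Genes with no overlap made up 8.73% in the upward and 9.07% in the downward direction. Of the genes called with vehicle, 3016 were called in the same direction with saracatinib, which is 58.9% of the vehicle calls and 47.4% of the saracatinib calls, and 7 were called in the opposite direction. The sign was the same for 92.7% of the vehicle calls, whether called with saracatinib or not. Antibody genes were higher again: Igkc had 14.5 to 54.0 CPM in saline and 708 to 1235 CPM in empty vector lungs (log2 fold change 5.05 ± 0.71, adjusted p = 3.09e-06), Jchain 1.37 to 11.0 and 219.8 to 484 CPM (log2 fold change 6.20 ± 0.87, adjusted p = 2.87e-06), and 10 of 11 constant-region genes were higher. Srd5a2 had 0 to 0.0796 and 2.91 to 17.9 CPM (adjusted p = 2.13e-12). B cell genes were higher in 14 of 17, T cell genes in 13 of 18 and heart muscle genes in 13 of 15. All 5 empty vector lungs of this arm were high in Igkc, with no counterpart of the low vehicle library 5.

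**Figure D5:**
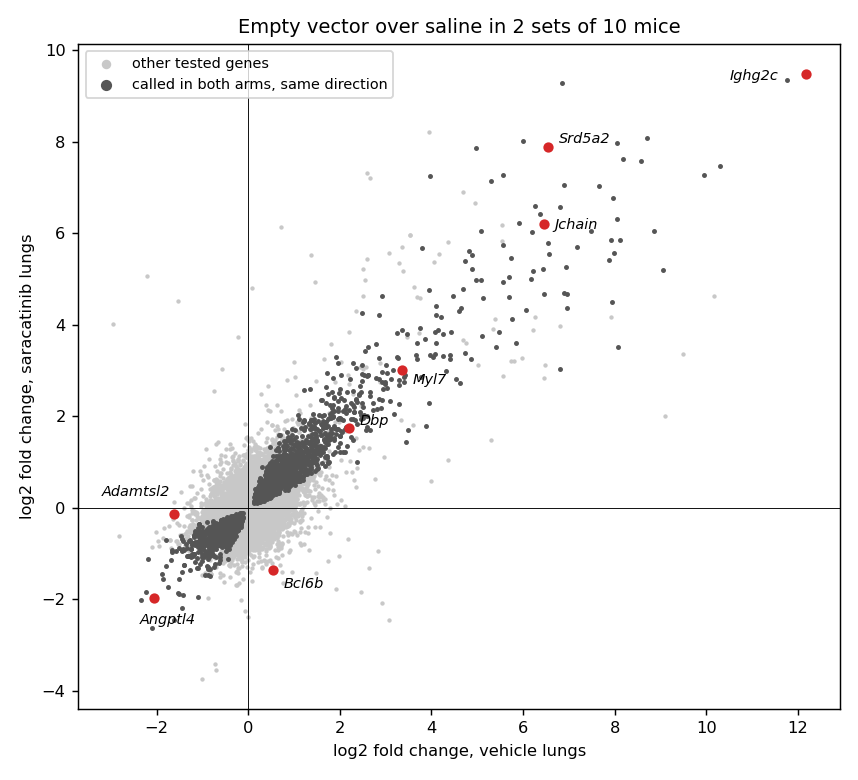
Log2 fold change, empty vector over saline, in vehicle lungs (x axis) and saracatinib lungs (y axis), 10 mice each, for the 19529 tested genes; dark points are the 3016 called in both in the same direction and red points are named genes. Ighg2c (12.18 and 9.47), Srd5a2 and Jchain lie far out on both axes, and Adamtsl2 and Bcl6b differ between the arms.

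A test of the difference between the 2 arms called 5 genes in which the saracatinib value was higher (0.0256% of all tested) and 1 in which it was lower (0.00512%), while 2727 had an unadjusted p under 0.05. Adamtsl2, a matrix protein that binds latent TGF-beta binding protein, had 163, 163, 275, 182 and 241 CPM in saline and 93.2, 50.5, 48.6, 69.0 and 71.4 CPM in empty vector lungs with vehicle (log2 fold change -1.62 ± 0.18, adjusted p = 1.26e-07), and 78.8 to 104 and 66.9 to 115 CPM with saracatinib (log2 fold change -0.15 ± 0.17, adjusted p = 0.55). The difference between the arms was 1.47 ± 0.25, adjusted p = 0.010. Saline lungs were lower with saracatinib than with vehicle, and the empty vector lungs of the 2 arms overlapped. Tmem119 showed the same arrangement (43.9 to 52.9 and 18.1 to 32.2 CPM with vehicle, 21.7 to 33.8 and 28.5 to 34.1 CPM with saracatinib, 1.14 ± 0.20, adjusted p = 0.013), and so did the antisense transcript Bcas3os1 (1.73 ± 0.32, adjusted p = 0.025), whose strand assignment is uncertain. Bcl6b, a transcriptional repressor of endothelium, had 35.5 to 50.7 and 46.6 to 66.9 CPM with vehicle and 70.8 to 112 and 24.7 to 49.2 CPM with saracatinib (-1.91 ± 0.37, adjusted p = 0.040). Lpgat1, a lipid acyltransferase, and Rnf170, a ubiquitin ligase, differed by less (0.40 ± 0.07, adjusted p = 0.010 and 0.44 ± 0.09, adjusted p = 0.040). The count depended on single lungs. Without empty vector vehicle library 1 it was 248, without library 2 it was 29 and without saline vehicle library 5 it was 13, with all 6 genes among them each time. Without saline vehicle library 3, empty vector vehicle library 4 or 5 or empty vector saracatinib library 1 or 2 it was 3. DESeq2 called 85 genes and limma 490.

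The base composition of genes moved with the calls. Among the 3736 protein-coding genes with the lowest GC content (median 42.1%), 16.7% were higher and 8.94% lower with vehicle, and among the 3736 with the highest (median 57.3%) 10.5% were higher and 20.3% lower. The slope was steeper with saracatinib, at 30.8% higher and 3.83% lower in the lowest set against 6.53% and 37.1% in the highest. With an offset per library fitted on GC content, chosen after the data were seen, the sets were closer (13.6 to 16.2% higher and 12.8 to 15.3% lower with vehicle) and 5162 genes were called with vehicle, 4518 of them as before. Under this offset 15 alveolar fibroblast and 9 glucocorticoid genes were lower and 16 B cell genes higher. With saracatinib the offset left 4790 called genes, 3704 of them as before, and 2 alveolar fibroblast and 13 smooth muscle and pericyte genes lower. Under the offset 2718 genes were called in the same direction in both arms, which is 52.65% of its vehicle calls and 56.74% of its saracatinib calls. Gene length had less of a gradient, with 14.8% higher and 10.1% lower among the 3738 shortest genes and 13.9% and 18.95% among the 3737 longest.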

How the data were processed

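Left-lung RNA of 40 mice was depleted of ribosomal RNA and made into libraries with a strand-keeping kit, per the labels' protocols. The authors deposited raw gene counts in 1 table per model. The submitters' processing notes name STAR 2.6.1d, featureCounts of Subread 1.6.3, Picard and edgeR, and both mm9 and GRCm38 as builds. Whether counting used strand is not given in those notes, so antisense and overlapping genes are uncertain. The tables were joined on the gene identifier (55536 genes), and all 19529 genes kept by filterByExpr matched GENCODE M21 (GRCm38).

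All 40 libraries entered 1 fit of edgeR 4.0.16 (R 4.3.3) with TMM scaling and a coefficient per group, and p-values were adjusted over all genes tested. The test was checked on simulated counts. The 10 libraries held 9289156 to 13725397 counts. Libraries of a group differed beyond sampling noise in all 40 pairs examined (chi-square per degree of freedom 4.29 to 52.7 over genes with at least 20 counts), so each counted as 1 sample. Alternatives were DESeq2 1.42.0 and its size factors, limma 3.58.1 with voom and quality weights, no filter, a stricter filter (1 CPM in 5 libraries), the compared groups alone, each library left out, and a GC-content offset added after seeing the data.

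Members and the 65 gene lists were chosen with earlier results of these data known. Genes are named by this rule: per comparison the 12 protein-coding genes with the largest called difference each way, at 1 CPM or more and with no overlap, up to 4 called members per list by size, a panel of 24 genes, the 5 with the largest vehicle difference among those called in both drug arms, and the interaction genes. The members named outside it were chosen after their values were seen: Ighd, Ighg3, Prdm1, Xbp1, Cxcl12, Cxcl14, Top2a, Mki67, H2-Aa, H2-Eb1, Ciita, Pdgfra, Ces1d, Itga1, Krt7, Nr2f2, mt-Rnr1, mt-Rnr2, Col3a1, Myh11 and the contractile genes, Notch3, Ttn, Tbx5, Fkbp5, Nr3c1, Nr1d2, Fyn and Bcar1.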

Additional observations from a re-analysis of the deposited data

Results flagged for a closer look

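In 104 groups of 5 lungs, over 52 named genes, 8 single lungs lay far from the other 4 by Dixon's criterion, which chance alone meets in about 1 in 20 groups. The fifth saline lung was one of them in 4 genes: Slc7a10 at 121.2 CPM (others 75.3 to 79.2), Scgb1a1 at 4337 CPM (2787 to 3008), Irf7 at 13.73 CPM (18.1 to 19.7) and Ddx3y at 75.98 CPM (94.3 to 100.2). The fourth saline lung had 153.4 CPM of Cyp1a1, a target of the aryl hydrocarbon receptor, against 3.94 to 6.12 in the others, and the called difference of that gene (log2 fold change -2.82) rests on it: without that lung it was -0.09 (adjusted p = 0.94). The first empty vector lung had 41.06 CPM of Tcim (15.1 to 18.6) and 0.1613 CPM of Ifng (0.0820 to 0.1025), and the fourth 26.96 CPM of Ighv5-15 (0 to 0.403). The Ifng levels are those of a few counts a library, where the stated rate of Dixon's criterion need not hold, so that flag says little.

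The empty vector against saline difference itself differed between the saracatinib and vehicle arms in 6 genes (edgeR's quasi-likelihood test of the interaction, saracatinib minus vehicle on the log2 scale): Bcas3os1 by 1.73, Adamtsl2 by 1.47, Tmem119 by 1.14, Rnf170 by 0.44, Lpgat1 by 0.40 and Bcl6b by -1.91.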

How the results depend on the processing

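The count of genes differing between empty vector and saline lungs with vehicle stayed within 1.5 times of 5123 under all alternatives except the fit to the 10 compared libraries, which gave 3132. Leaving out 1 library at a time gave 3996 to 5758. The saracatinib count of 6365 stayed within that margin under all alternatives, with 5187 to 6390 when a library was left out. The genes behind that count changed more: with the GC-content offset 3704 of the 6365 were still called, among 4790. The count of genes differing between the arms, 6 as reported, was 1 in the fit to the compared groups, 85 with DESeq2, 490 with limma, 11 with the GC-content offset and 3 to 248 when a library was left out; the cause was not tested. Of 264 named genes 235 were called, and 167 of these kept the call and its direction under every alternative that tested them. An alternative whose filter removed a gene was not counted for that gene. No called gene changed sign. List medians moved by more than the spread between lungs in 2 of 65 lists with the compared groups alone and in 0 of 65 with the size factors or the GC-content offset. No paired analysis was possible because the mouse numbers in the labels are not shared between the groups. Depth limits genes such as Ifng, Ighg3 and the interferon ligands, whose levels rest on few counts.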

Other observations

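Some lists not described above held calls in vehicle lungs. Of 8 tested genes of eosinophils, mast cells and type 2 immunity, 6 were higher in empty vector lungs, with a median log2 fold change of 0.73. Ccl22, a chemokine of dendritic cells, had 5.74 to 9.67 CPM in saline and 12.5 to 19.7 CPM in empty vector lungs (log2 fold change 1.06 ± 0.17, adjusted p = 1.98e-05), and Ccl11, eotaxin, 0.998 to 3.12 against 2.74 to 5.04 CPM (log2 fold change 0.94 ± 0.27, adjusted p = 0.0086). Prg2, major basic protein of eosinophils, had 0 to 0.468 against 0.0989 to 1.80 CPM (log2 fold change 1.96 ± 0.71, adjusted p = 0.039), while Epx was listed at 0 in all 10 libraries. The count was 3 without saline library 4 or empty vector library 3 or 4, and 3 in the fit to the 10 libraries alone, and 4 without saline library 1, 2 or 5.

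Of 19 genes of cholesterol and lipid synthesis, 6 were higher (3 without empty vector library 3), beside 13.9% of all genes. Sqle, squalene epoxidase, had 34.9, 32.9, 32.7, 24.3 and 36.1 CPM in saline and 39.3, 46.7, 62.4, 53.5 and 48.8 CPM in empty vector lungs, without overlap (log2 fold change 0.64 ± 0.13, adjusted p = 0.00043), and Hmgcs1, which makes the precursor of mevalonate, 67.2 to 84.2 against 82.5 to 126 CPM (log2 fold change 0.46 ± 0.12, adjusted p = 0.0038). Of 12 tested genes of venous, lymphatic and activated endothelium, 3 were higher and 2 lower (1 to 3 higher with a library left out), beside 13.9% and 12.3% of all genes. Prox1, which defines lymphatic endothelium, had 7.26 to 9.31 against 8.51 to 17.7 CPM (log2 fold change 0.70 ± 0.18, adjusted p = 0.0030), and the venular receptor Ackr1 0.0832 to 0.468 against 0.565 to 0.902 CPM (log2 fold change 1.43 ± 0.51, adjusted p = 0.034). Sele, E-selectin, was the other higher one (log2 fold change 1.12 ± 0.43, adjusted p = 0.049, and 0.056 to 0.14 in the 10 alternatives that did not call it). The lower ones were the adhesion molecule Vcam1 (log2 fold change -0.47 ± 0.13, adjusted p = 0.0079) and Nr2f2, a transcription factor of venous endothelium (log2 fold change -0.23 ± 0.08, adjusted p = 0.022), which was not called in the fit to the 10 libraries alone or without saline library 5 or empty vector library 3 (adjusted p = 0.12, 0.10 and 0.060). Egr3, an immediate early gene, had 2.57, 2.91, 2.34, 2.99 and 6.81 CPM in saline and 4.44, 19.7, 33.2, 15.9 and 11.0 CPM in empty vector lungs (log2 fold change 2.28 ± 0.35, adjusted p = 1.34e-05). Of 18 immediate early genes 7 were higher and 1 lower, beside 13.9% and 12.3% of all genes. The higher count was 4 without saline library 2, 3 or 4 or empty vector library 2, and 3 without empty vector library 3. With saracatinib 1 of the 18 was higher and 5 lower, beside 16.8% and 15.8% of all genes. The list's median was -0.06 with saracatinib and 0.49 with vehicle.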
